A study of Mus musculus with 10 samples.

Results

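The genes of the mouse major histocompatibility complex (MHC, named H2 in the mouse) and their partners in antigen presentation were followed through 6 lists of CUT&Tag peaks from macrophages. They were chosen by name: every protein-coding gene whose symbol begins with H2-, together with B2m, Tap1, Tap2, Tapbp, Cd74, Ciita and Nlrc5. The mm10 gene set held 45 such genes, and 42 of them lie on assembled chromosomes among 21774 protein-coding genes; H2-Q8, H2-Q9 and H2-T18 are placed on other scaffolds and were not measured. The 42 genes comprise 2 classical class I genes, 23 nonclassical class I genes, 4 classical and 5 nonclassical class II genes, 4 peptide-loading genes (B2m, Tap1, Tap2 and Tapbp), the invariant chain gene Cd74, the transactivators Ciita and Nlrc5, and H2-Ke6, a gene of the H2-K region that encodes a metabolic enzyme. Of these, 38 lie within a 3564 kb segment of chromosome 17.

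Class I molecules carry peptides made in the cytosol to the cell surface, where cytotoxic T cells read them. The proteasome cuts the peptides, the transporter Tap1-Tap2 moves them into the endoplasmic reticulum, tapasin (Tapbp) helps load them, and beta-2 microglobulin (B2m) completes the molecule. Class II molecules are made in antigen-presenting cells such as macrophages, dendritic cells and B cells, and show peptides from endosomes to helper T cells; the invariant chain (Cd74) guards their groove and H2-DM exchanges its remnant for peptide. Ciita drives the class II genes and Nlrc5 the class I genes, through promoters that carry the X and Y boxes bound by RFX, CREB and NF-Y.

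The study profiled where nucleophosmin (NPM1), an abundant nucleolar and chromatin protein, and the promoter mark H3K4me3 (trimethylated lysine 4 of histone H3) lie in mouse macrophages. CUT&Tag uses an antibody to direct a transposase, so that fragments released near the bound protein are sequenced. NPM1 was profiled in WT cardiac macrophages at day 3 after a sham operation, in WT cardiac macrophages at day 3 after myocardial infarction, in untreated WT bone marrow-derived macrophages (BMDM, time 0 h) and in WT BMDM given IL-4 at 20 ng/ml for 12 h. The BMDM were grown for 7 days with M-CSF at 50 ng/ml. H3K4me3 was profiled in WT and in NPM1 knockout cardiac macrophages, both at day 3 after myocardial infarction. Each of the 6 groups is 1 library, so no difference between lists could be tested and none has a replicate spread. The labels do not say which promoter drives the deletion, whether animals were pooled or how the heart macrophages were isolated. Another 4 samples of the series, all from IL-4-treated BMDM, were not analysed here.

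The 6 lists hold between 52977 and 104514 peaks. The genome-wide background that the peak values imply was 1.29 reads in the sham list and 1.31 in the untreated list, against 3.03 in the infarct list, 4.18 in the IL-4 list, 2.92 in the WT H3K4me3 list and 2.49 in the knockout H3K4me3 list. The sham and untreated libraries were therefore the shallowest, and a gene without a peak there is a gene without a peak at that depth. A gene is called marked when a peak lies within 1 kb of either of its ends, and a peak, or none, means such a gene-end peak unless it is said to lie inside the gene; fold is the height of the peak's summit over local background and −log10 q its adjusted significance, both as deposited, and they order peaks within a list. Of 10 macrophage marker genes, 2 were marked in the sham list, 9 in the infarct list, 0 in the untreated list, 9 in the IL-4 list, 8 in the WT and 10 in the knockout H3K4me3 list. Of 8 B cell markers, 1 was marked in the infarct list and 1 in the WT H3K4me3 list, and 3 in the knockout H3K4me3 list. For 8 dendritic cell markers these counts were 3, 2 and 5, and for 8 fibroblast markers 1, 1 and 5. They were 2, 3 and 3 for 7 T cell markers, 2, 3 and 3 for 8 endothelial markers, 1, 3 and 2 for 8 neutrophil markers, and 1, 0 and 0 for 8 cardiomyocyte markers. Of all genes, 10.9% were marked in the sham list, 50.8% in the infarct list, 6.74% in the untreated list and 51.5% in the IL-4 list. For H3K4me3 these shares were 57.4% in WT and 62.1% in the knockout. At a −log10 q of at least 5, the WT H3K4me3 list marked 9 of all 65 markers and the knockout list 24 (all genes: 43.0% and 57.3%). Macrophage markers at that value went from 6 to 9 and dendritic cell markers from 2 to 4. In the knockout list the B cell genes Cd79a, Cd79b and Ebf1 and the fibroblast genes Col1a1, Col1a2 and Postn reached it. So did the T cell genes Cd3d and Cd4 and the neutrophil genes S100a8 and Csf3r. In the WT list no B cell, fibroblast, T cell or neutrophil marker did. The knockout peaks of Cd79a, Cd79b and Cd3d lay at the upper-coordinate end of the gene. Peaks of neighbouring genes were not set apart for the markers. The part of cells other than macrophages, several of which also make class II molecules, in the results below was not tested.

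The promoters of the family show how its members differ before any peak is considered. RefSeq promoter windows (GRCm38.p6, 250 bases before to 50 after the start of the table's transcript, which can lie inside the gene's outer end) were at hand for 35 of the 42 genes, and not for Tap2, H2-Ab1, H2-Q1, H2-T24, Ciita, Nlrc5 and Cd74. The 150 bases before the start are printed, 5′ to 3′ on the gene's own strand, for classical class I genes and B2m, an H2-Q gene, 3 class II genes and an H2-M gene. Capitals mark CCAAT or its complement ATTGG (the Y box letters) and every CG dinucleotide. The runs are H2-K1 (chr17:34000348-34000497, minus strand), H2-D1 (chr17:35262944-35263093, plus strand), B2m (chr2:122147537-122147686, plus strand), H2-Q7 (chr17:35439005-35439154, plus strand), H2-Aa (chr17:34287824-34287973, minus strand), H2-Eb1 (chr17:34305717-34305866, plus strand), H2-DMb1 (chr17:34153041-34153190, plus strand) and H2-M10.5 (chr17:36772760-36772909, plus strand).
H2-K1: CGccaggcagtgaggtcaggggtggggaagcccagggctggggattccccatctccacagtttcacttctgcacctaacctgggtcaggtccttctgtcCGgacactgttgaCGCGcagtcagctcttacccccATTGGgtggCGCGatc
H2-D1: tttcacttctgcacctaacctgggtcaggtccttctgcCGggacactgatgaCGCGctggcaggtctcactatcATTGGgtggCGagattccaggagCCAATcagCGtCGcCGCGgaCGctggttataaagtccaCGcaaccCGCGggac
B2m: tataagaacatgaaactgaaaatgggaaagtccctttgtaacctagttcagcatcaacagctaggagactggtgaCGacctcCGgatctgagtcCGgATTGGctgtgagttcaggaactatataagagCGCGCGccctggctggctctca
H2-Q7: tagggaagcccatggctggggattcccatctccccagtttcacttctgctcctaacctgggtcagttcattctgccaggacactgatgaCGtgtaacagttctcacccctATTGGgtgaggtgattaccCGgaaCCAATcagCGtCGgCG
H2-Aa: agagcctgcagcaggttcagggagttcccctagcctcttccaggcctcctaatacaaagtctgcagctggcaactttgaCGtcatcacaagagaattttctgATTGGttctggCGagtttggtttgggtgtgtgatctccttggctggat
H2-Eb1: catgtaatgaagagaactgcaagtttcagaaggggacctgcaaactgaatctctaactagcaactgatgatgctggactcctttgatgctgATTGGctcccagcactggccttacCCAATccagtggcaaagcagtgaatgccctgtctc
H2-DMb1: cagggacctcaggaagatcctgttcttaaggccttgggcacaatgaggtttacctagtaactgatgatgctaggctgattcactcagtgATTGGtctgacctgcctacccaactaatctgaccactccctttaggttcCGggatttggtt
H2-M10.5: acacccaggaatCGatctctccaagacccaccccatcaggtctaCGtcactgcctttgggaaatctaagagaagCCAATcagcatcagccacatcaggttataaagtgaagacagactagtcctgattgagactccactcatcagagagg
Every one of these 8 runs holds the CCAAT letters, while the number of CG dinucleotides falls from 12 in H2-D1 and 6 in H2-K1 and B2m to 2 in H2-Aa, 1 in H2-DMb1 and 0 in H2-Eb1.

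Over the whole family, CCAAT stood on either strand wholly within the 100 bases before the start in 29 of 35 promoters (82.9%), against 21.8% of the 17492 promoters in the table. The class II promoters apart from H2-DMa all had it there, 7 of 7. TGACG, letters of the CREB site, occurred on either strand in the 300-base window of 14 of 35 promoters (40.0%), against 23.8% of all promoters, and both classical class I genes held it. GAAA followed by any 2 bases and GAAA, as in the interferon-stimulated response element, occurred on either strand in B2m, H2-T22 and H2-T23, 3 of 35 (8.57%), against 3.4% of all promoters. Sites of different motifs overlapped in 0 of the 35 promoters. The median CpG number of the window was 14 for the classical class I and peptide-loading genes, 8 for the H2-Q and H2-T genes, 3 for the class II genes and 2 for the H2-M genes without H2-M3, beside 13 for all promoters. The ranges overlapped, with 2 to 19 for the H2-Q and H2-T genes, 0 to 5 for those H2-M genes and 0 to 3 for class II without H2-DMa. H2-DMa, with 29, was the exception in class II; its listed start lies inside Brd2. These are letters in a window and not measured binding sites.

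The classical class I genes H2-K1 and H2-D1, which encode the molecules that present peptides to cytotoxic T cells, had some of the strongest NPM1 peaks of the family. H2-K1 (NCBI Gene 14972, chr17:33996012-34000619, minus strand) had no peak in the sham list, fold 7.51 (−log10 q 47.8) in the infarct list, fold 3.03 (0.85) in the untreated list and fold 6.23 (40.4) in the IL-4 list. Its H3K4me3 peak had fold 6.19 (27.1) in WT and 7.11 (138) in the knockout. The infarct NPM1 peak was 1040 bp wide and lay over the promoter window, and its q ranked at percentile 98.3 of all genes marked in that list, whereas the untreated peak was 200 bp wide, missed the window and did not pass a q of 0.05.

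H2-D1 (NCBI Gene 14964, chr17:35263094-35267497, plus strand) had a 200 bp peak of fold 3.1 (−log10 q 1.05) at its far end in the sham list, fold 5.73 (33.6) over its start in the infarct list, none in the untreated list and fold 5.32 (34) in the IL-4 list. Its H3K4me3 peak had fold 4.1 (12.7) in WT and 4.39 (63.5) in the knockout. Both classical genes thus carried NPM1 and H3K4me3 over the same start in the infarct and IL-4 NPM1 lists and in both H3K4me3 lists.

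Among the peptide-loading genes, B2m and Tap1 resembled the classical genes and Tap2 had no NPM1 end peak. B2m (chr2:122147687-122153082, plus strand) had NPM1 peaks of fold 7.98 (−log10 q 27.6) in the infarct list and 7.34 (26.9) in the IL-4 list, and none in the sham and untreated lists; its H3K4me3 folds were 3.60 (6.99) in WT and 3.43 (35.9) in the knockout. The knockout fold of B2m was no higher than the WT fold, although the summit held 158 reads in the knockout and 31 in WT. The local background against which fold is taken was 45.4 reads in the knockout and 7.88 in WT.

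Tap1, a subunit of the peptide transporter, shares a start region with Psmb9, an immunoproteasome subunit, and its peaks cannot be assigned to 1 of the pair. It had fold 6.52 (−log10 q 21.4) in the infarct list, 5.54 (18) in the IL-4 list, and H3K4me3 folds of 5.03 (15.9) in WT and 6.41 (131) in the knockout, with no NPM1 peak in the sham and untreated lists. Tap2, its partner subunit, was marked only in the knockout H3K4me3 list, by a 1540 bp peak of fold 2.94 (32.3). A WT H3K4me3 peak of fold 2.03 (1.63) lay within the span of that peak, just past 1 kb from the lower-coordinate end. Further inside Tap2 lay a WT H3K4me3 peak of fold 2.78 (1.81) and an infarct NPM1 peak of fold 2.5 (1.14). Tapbp had no sham or untreated peak, fold 3.02 (4.53) at its upper-coordinate end in the infarct list, 3.38 (9.38) at its start in the IL-4 list, and H3K4me3 folds of 4.08 (14) and 4.69 (80.2). Zbtb22 and Rgl2 have ends within 200 bp of some Tapbp peaks, and Slc39a7 and Ring1 of the peaks of H2-Ke6. H2-Ke6 had folds of 2.88 (5.75) in the infarct list, 4.17 (21.1) in the IL-4 list, and 3.66 (11.8) and 6.31 (118) for WT and knockout H3K4me3.

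**Figure D1:**
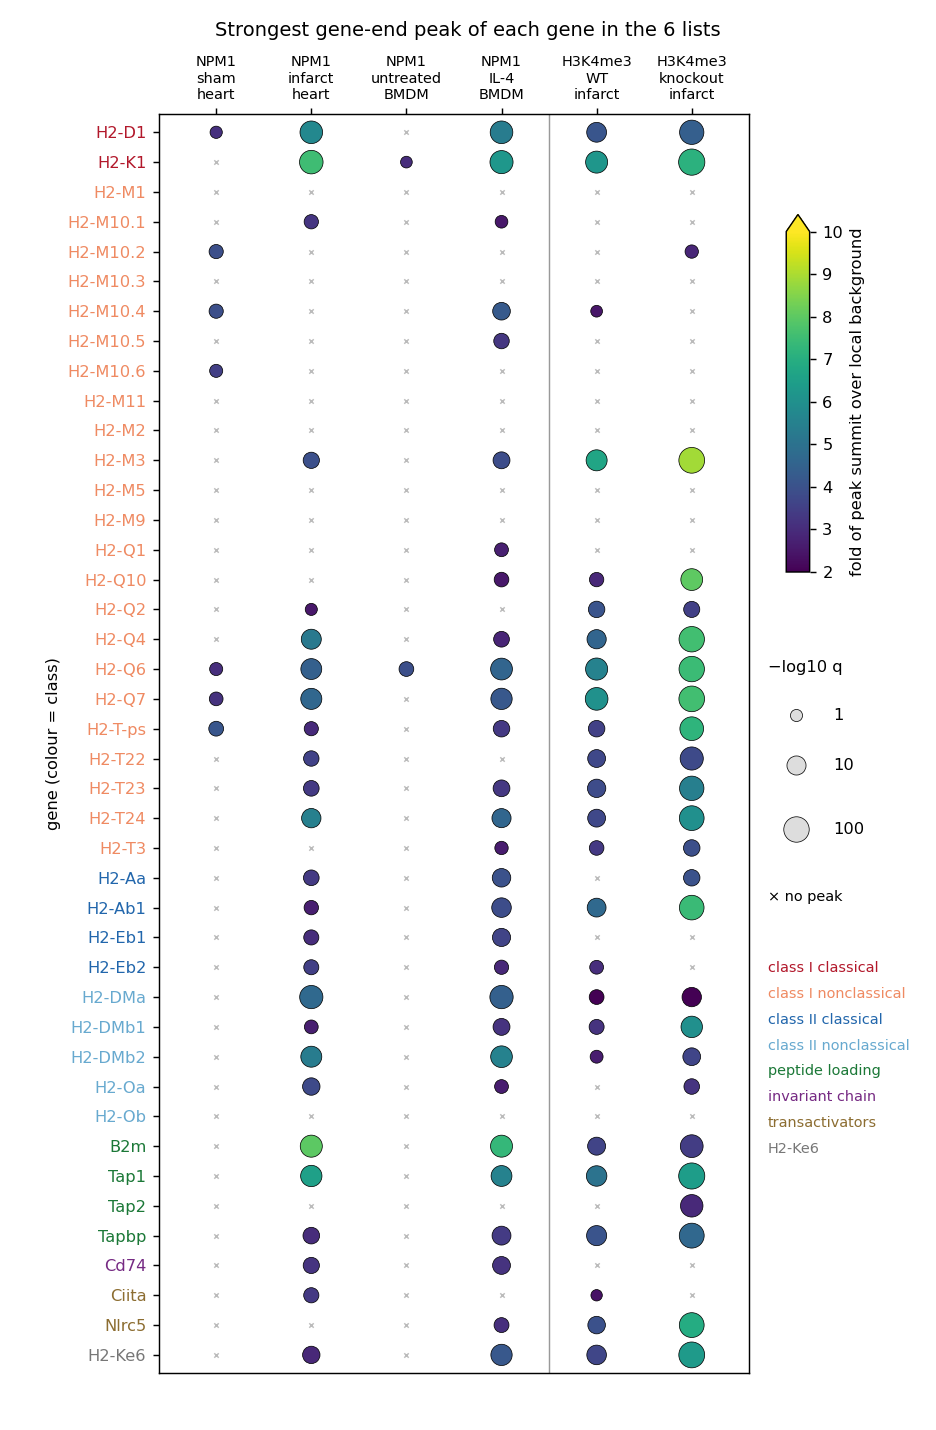
Each row is 1 of the 42 genes, coloured by class, and each column 1 of the 6 peak lists. The circle stands for the gene's strongest peak within 1 kb of either end, with area rising with −log10 q and colour giving fold over local background; crosses mark genes without a peak. The sham and untreated columns hold 7 and 2 circles, and most H2-M rows stay empty.

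The nonclassical class I genes split into an H2-Q and H2-T group and an H2-M group. Of the 11 H2-Q and H2-T genes, 10 were marked by H3K4me3 in each genotype, all but H2-Q1 (all genes: 57.4% in WT and 62.1% in the knockout), and 8 had NPM1 in the infarct list (all genes: 50.8%). Inside H2-Q1, just past 1 kb from its lower-coordinate end, lay H3K4me3 peaks of fold 4.59 (−log10 q 5.70) in WT and 5.36 (8.87) in the knockout. H2-Q6 and H2-Q7 led the H2-Q genes. H2-Q6 was the only member marked in all 6 lists, with NPM1 folds of 3.05 (−log10 q 1.42) in sham, 4.43 (18.2) in infarct, 3.93 (2.45) in untreated and 4.59 (25.2) in IL-4 macrophages, and H3K4me3 folds of 5.54 (28.1) and 7.45 (99.2). H2-Q7 had folds of 3.16 (1.77, at its far end), 4.63 (19.5), none and 4.19 (21.2) in the same order for NPM1, and 6.03 (34.6) and 7.59 (109) for H3K4me3. The promoter windows of H2-Q6 and H2-Q7 share a stretch of 67 identical bases, and those of H2-T23 and H2-T-ps one of 86; how reads that fit several copies were handled is not stated, and 8 of 23 class I promoters share at least 50 identical bases with another.

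H2-Q4 followed with NPM1 folds of 5.22 (−log10 q 13.5) in the infarct list and 2.84 (3.4) in the IL-4 list, and H3K4me3 folds of 4.58 (10.4) in WT and 7.58 (99.97) in the knockout. H2-T24 had NPM1 folds of 5.45 (10.9) and 4.62 (10.1), and H3K4me3 folds of 3.75 (6.71) and 5.98 (76.0). H2-T23, which encodes Qa-1, a ligand of inhibitory receptors on natural killer cells, had 3.37 (3.33), at its far end, and 3.29 (4.74) for NPM1, and 3.82 (7.88) and 5.43 (66.1) for H3K4me3. These 3 genes had no sham or untreated peak.

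H2-T22, a ligand of some gamma-delta T cells, had NPM1 only in the infarct list, at fold 3.57 (−log10 q 3.09) beside an end of Gm6034, and H3K4me3 folds of 3.73 (6.66) and 3.80 (41.2). H2-T-ps, which the table lists as protein-coding despite its name, had NPM1 folds of 4.13 (2.54) in sham, 2.95 (2.05) in infarct and 3.32 (4.42) in IL-4 macrophages, and H3K4me3 folds of 3.54 (4.38) and 7.21 (50.7); NPM1 lay at its far end and H3K4me3 over its start. H2-Q10 had NPM1 only in the IL-4 list, at fold 2.51 (2.4), and H3K4me3 folds of 2.90 (2.18) and 8.0 (25.1). The H3K4me3 peaks of H2-Q10 lay about 1 kb inside the gene and missed the promoter window.

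In the H2-M group, H2-M3, which presents N-formylated bacterial peptides, was the only gene with H3K4me3 end peaks at a −log10 q of at least 5. It had NPM1 folds of 3.97 (−log10 q 3.98) in the infarct list and 3.86 (4.94) in the IL-4 list, none in the shallow lists, and H3K4me3 folds of 6.71 (19.2) in WT and 8.90 (114) in the knockout. Of the other 11 H2-M genes, several of which encode molecules of the vomeronasal organ, 1 was marked in the WT H3K4me3 list and 1 in the knockout list, neither with a −log10 q of 5. H2-M10.4 had the only NPM1 peak in this group past that value, fold 4.25 (6.25) in the IL-4 list, with fold 3.93 (2.06) in the sham list. H2-M10.2, H2-M10.4 and H2-M10.6 were marked in the sham list and not in the infarct list.

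The classical class II genes H2-Aa, H2-Ab1, H2-Eb1 and H2-Eb2, which encode the chains that show peptides to helper T cells, were all marked by NPM1 in the infarct and IL-4 lists and had no gene-end peak in the sham and untreated lists. Inside the genes the sham list held 1 peak in H2-Eb1, of fold 2.99 (−log10 q 0.889), and 1 in H2-Eb2, of fold 3.06 (0.863), neither past a q of 0.05. H2-Ab1 had NPM1 fold 2.68 (−log10 q 2.22) in the infarct list and 3.86 (11.7) in the IL-4 list, where its −log10 q was the highest of the 4, and it was the only one of them with an H3K4me3 end peak at −log10 q of at least 5, fold 4.71 (9.21) in WT and 7.42 (72.4) in the knockout. H2-Aa had NPM1 folds of 3.37 (3.33) and 4.0 (8.31), no WT H3K4me3 end peak, and a 223 bp knockout peak of fold 4.01 (4.25) that lay inside the gene and outside the promoter window. On H2-Ab1 the NPM1 and H3K4me3 peaks overlapped at the start, and on H2-Aa only NPM1 covered the start.

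H2-Eb1 had NPM1 folds of 3.02 (−log10 q 2.79) and 3.62 (7.39) over its start and no H3K4me3 end peak in either genotype. Its H3K4me3 lay inside the gene, where a peak 4037 bp past the start had fold 4.63 (8.11) in WT, and one at 4002 bp had fold 9.96 (68.7) in the knockout. H2-Eb2 had NPM1 folds of 3.47 (2.72) and 2.89 (2.12) and a weak WT H3K4me3 peak of fold 3.06 (1.81), with none in the knockout. The promoter windows of H2-Aa, H2-Eb1 and H2-Eb2 therefore all held an NPM1 peak in both deep NPM1 lists, while 1 of the 3 held H3K4me3 in WT and 0 in the knockout.

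The nonclassical class II genes encode the peptide exchanger H2-DM (H2-DMa, H2-DMb1, H2-DMb2) and its modulator H2-DO (H2-Oa, H2-Ob). The lower-coordinate end of the H2-DMa gene model lies inside Brd2, which encodes a chromatin reader. The peaks there had NPM1 folds of 4.70 (−log10 q 42.5) and 4.43 (43.4) and H3K4me3 folds of 2.03 (2.51) and 1.78 (11), and they cannot be told apart from peaks of Brd2. A second cluster lay inside H2-DMa about 16 kb from that end and away from Brd2. There NPM1 had fold 4.47 (13.3) in the infarct list and 5.70 (25.1) in the IL-4 list, with summits 15874 and 15976 bp from that end. H3K4me3 peaks with summits at 15879 bp in WT and 15997 bp in the knockout had fold 3.23 (3.70) in WT and 9.07 (77.3) in the knockout, and a further pair at 16890 and 16969 bp had fold 4.73 (9.87) in WT and 4.84 (24.6) in the knockout.

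H2-DMb2 had NPM1 folds of 5.33 (−log10 q 18.8) in the infarct list and 5.56 (24.1) in the IL-4 list. Both peaks lay at its lower-coordinate end and not over the RefSeq promoter window; H3K4me3 had fold 2.65 (1.34) at the upper end in WT and 3.64 (6.46) at the lower end in the knockout. H2-DMb1 had NPM1 folds of 2.67 (1.81) and 3.16 (4.95), the first of them past its window, and H3K4me3 folds of 3.17 (2.68) and 5.97 (22.2) over its start. H2-Oa had NPM1 folds of 3.81 (5.84) and 2.64 (1.82), no WT H3K4me3 and a knockout fold of 3.21 (3.23). H2-Ob was the only class II gene with no gene-end peak in any list; the knockout H3K4me3 list held a 306 bp peak of fold 4.58 (5.8) 1271 bp inside it, and the infarct NPM1 list a peak of fold 2.74 (1.43) at 1315 bp. None of the 5 genes had a sham or untreated peak.

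Cd74 encodes the invariant chain and lies on chromosome 18. It had NPM1 folds of 3.21 (−log10 q 3.96) in the infarct list and 3.16 (6.65) in the IL-4 list, no end peak in the sham and untreated lists, and no H3K4me3 end peak in either genotype. Inside Cd74 the sham NPM1 list held a peak of fold 3.66 (1.798), past a q of 0.05, and the strongest inside peak of the knockout H3K4me3 list had fold 3.32 (3.86). Ciita had an NPM1 peak of fold 3.33 (2.87) at its upper-coordinate end in the infarct list, none within 1 kb of an end in the other NPM1 lists, and a WT H3K4me3 peak of fold 2.40 (0.748) at the lower end that did not pass a q of 0.05. Inside Ciita the IL-4 list held several NPM1 peaks, among them fold 3.34 (4.46) at 6736 bp and fold 3.20 (3.19) at 16072 bp. The infarct list also held NPM1 peaks inside it, up to fold 3.39 (2.98). Ciita is known to use several promoters, and in the knockout H3K4me3 list a 1099 bp peak of fold 5.94 (13.9) lay 9523 bp inside the gene and another of fold 4.57 (5.78) lay 16032 bp inside. Nlrc5 had an NPM1 end peak only in the IL-4 list, at fold 3.09 (2.62), with weaker NPM1 peaks inside this long gene in the infarct list (folds 2.48 to 2.73) and 1 in the untreated list (fold 3.46, −log10 q 1.40), and H3K4me3 folds of 3.97 (6.06) and 6.93 (77.8).

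**Figure D2:**
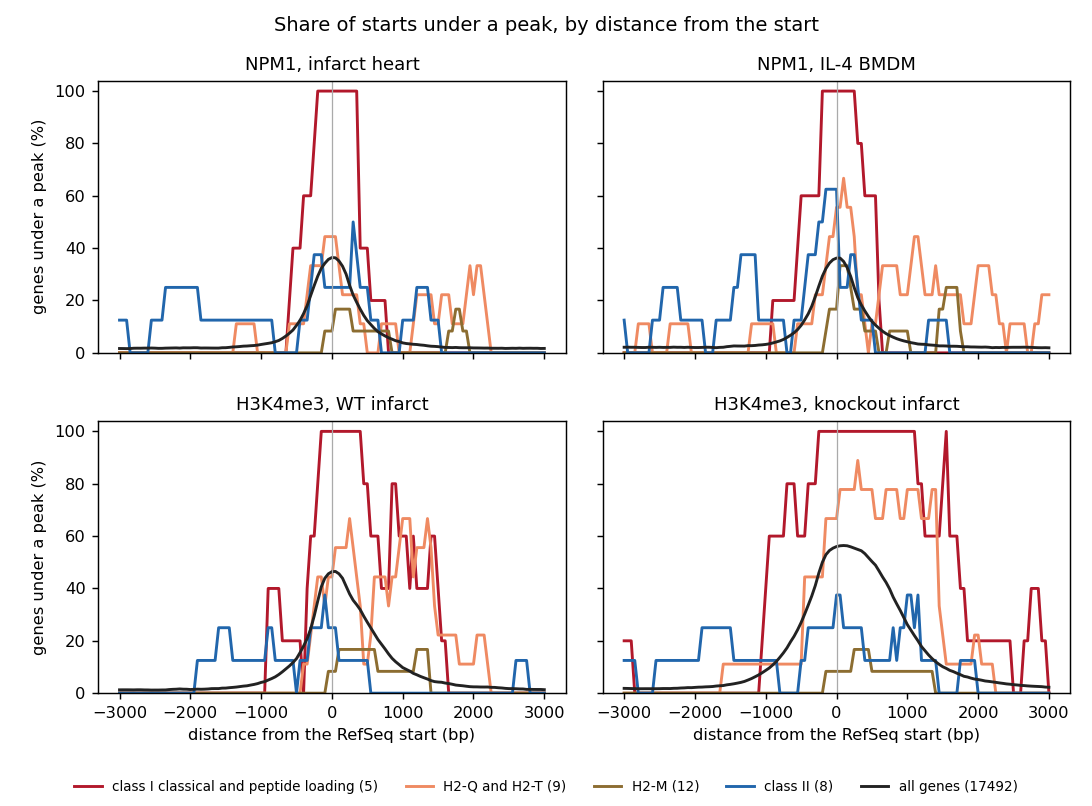
Percent of genes whose position lies under a peak, against distance in bp from the RefSeq start, in the 4 deeper lists, for 5 classical class I and peptide-loading genes, 9 H2-Q and H2-T genes, 12 H2-M genes, 8 class II genes and all 17492 genes with an entry. All 5 classical class I and peptide-loading genes lie under NPM1 and H3K4me3 at the start, while 2 of 8 class II genes lie under NPM1 there in the infarct list and 5 of 8 in the IL-4 list, and in the knockout H3K4me3 list 3 of 8.

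After infarction the NPM1 list marked 26 of the 42 genes, beside 50.8% of all genes, and after the sham operation 7, beside 10.9%. With a −log10 q of at least 5 the infarct list marked 12 members (all genes: 28.0%) and the sham list 0 (all genes: 0.684%). Of the 42 genes, 22 were marked in the infarct list alone (all genes: 43.7%), 4 in both (7.18%) and 3 in the sham list alone (3.77%). With a −log10 q of at least 5 the last 2 counts were 0 (all genes: 0.418% in both and 0.266% in the sham list alone), and 12 were in the infarct list alone (27.6%). The 3 were H2-M10.2, H2-M10.4 and H2-M10.6, and the 4 in both were H2-D1, H2-Q6, H2-Q7 and H2-T-ps, all of them class I genes. Class II went from 0 of 9 genes in the sham list to 8 of 9 in the infarct list, all but H2-Ob. This count includes H2-DMa, whose end peaks cannot be told apart from those of Brd2. Among the 138 other genes of the same chromosome 17 segment, 16 were marked in the sham list and 92 in the infarct list. The gap between the lists was thus one that all genes shared, and the 2 libraries also differ in depth; its part in the gap was not tested.

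The BMDM lists showed the same order of counts. These 2 libraries also differ in depth, with backgrounds of 1.31 reads in the untreated and 4.18 in the IL-4 list, and its part was not tested. The IL-4 list marked 29 of 42 genes (all genes: 51.5%) and the untreated list 2 (all genes: 6.74%); with a −log10 q of at least 5 these were 16 (29.5%) and 0 (0.4%). H2-K1 and H2-Q6 were marked in both lists (4.75% of all genes), 27 members in the IL-4 list alone (46.7%) and 0 in the untreated list alone (1.99%). With a −log10 q of at least 5, 16 members were in the IL-4 list alone (29.2%), 0 in both (0.326%) and 0 in the untreated list alone (0.0735%). With a −log10 q of at least 5, the IL-4 list marked H2-Aa, H2-Ab1, H2-Eb1, H2-DMa and H2-DMb2 among class II genes and B2m, Tap1, Tapbp and Cd74 among the partners. The infarct list marked 3 class II genes at that value, H2-DMa, H2-DMb2 and H2-Oa. In both lists the end peaks of H2-DMa cannot be told apart from those of Brd2.

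NPM1 and H3K4me3 were then compared at the same genes after infarction. Of the 26 members with NPM1 in the infarct list, 18 had WT H3K4me3 at the same end (69.2%), against 87.3% of all genes with NPM1. In any position at the ends, 21 members carried both marks (45.5% of all genes) and H2-Aa, H2-Eb1, H2-Oa, H2-M10.1 and Cd74, 5 in all, NPM1 without WT H3K4me3 (5.36%). With a −log10 q of at least 5 these counts were 9 (26.2%) and 3 (1.8%), the 3 being H2-DMa, H2-DMb2 and H2-Oa. H2-DMa and H2-DMb2 had WT H3K4me3 end peaks below that value, and the end peaks of H2-DMa cannot be told apart from those of Brd2. Of the 13 members with no end peak in either H3K4me3 list, NPM1 marked H2-Eb1, Cd74 and H2-M10.1 after infarction, 3 of 13 against 8.76% of all such genes, and 5 of 13 with IL-4, against 11.5%. The class I share at the same end was 10 of 12 and the class II share 4 of 8. Against the knockout H3K4me3 list, 20 of the 26 members had both marks at 1 end (all genes: 88.9%). Over the promoter windows, 16 of 35 members held NPM1 (all promoters: 42.6%) and 13 of those 16 also WT H3K4me3 (all promoters with NPM1: 94.1%). For class II, 4 of 8 windows held NPM1, and 2 of those 4 held WT H3K4me3 and 1 held knockout H3K4me3 (all promoters with NPM1: 97.1%). The window with knockout H3K4me3 was that of H2-DMa, inside Brd2. H2-Ab1 has no window and is not among the 8, although its NPM1 and H3K4me3 peaks overlapped at its start. In the IL-4 list 20 of 35 windows held NPM1 (all promoters: 42.5%), and 14 of those 20 also WT H3K4me3 (93.8% of all promoters with NPM1) and 14 knockout H3K4me3 (96.8%). The sham list covered 3 of 35 windows (1.7% of all promoters), the untreated list 1 (2.6%), WT H3K4me3 16 (51.5%) and knockout H3K4me3 17 (59.3%).

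The shares also differed with CpG number among all genes. Of 5101 promoters with 0 to 4 CpG, 385 held NPM1 in the infarct list, and 58.7% of these held WT H3K4me3 and 71.4% knockout H3K4me3. Measured at gene ends, 18.1% of the genes with 0 to 4 CpG were marked by NPM1 after infarction, and 8 of the 19 members with so few were. With 5 to 14 CpG the shares were 45.6% of all genes and 10 of 11 members, and with 15 or more 73.9% and 4 of 5. For knockout H3K4me3 the shares of all genes were 17.5%, 60.5% and 89.9%, and 7 of 19, 10 of 11 and 5 of 5 members were marked. H2-Q10, with 19 CpG, was the member with 15 or more that NPM1 did not mark after infarction.

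**Figure D3:**
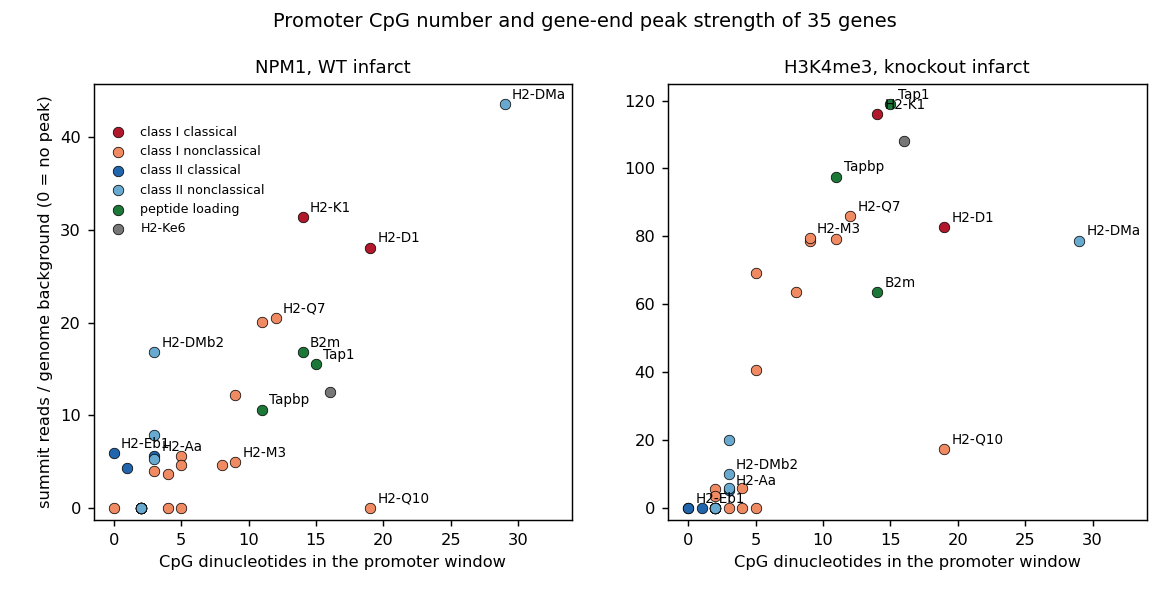
Each point is 1 of the 35 genes with a promoter window, coloured by class; the horizontal axis counts CpG dinucleotides in the window and the vertical axis gives reads at the strongest gene-end summit divided by the genome-wide background of the list, with 0 for no peak. H2-K1 and H2-D1 stand at 31.4 and 28.1 in the NPM1 infarct list, and H2-Aa and H2-Eb1 at 5.61 and 5.94 with 3 and 0 CpG. H2-DMa, the highest NPM1 point at 43.6, shares its peak with Brd2.

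H3K4me3 was compared between WT and NPM1 knockout macrophages after infarction. The WT list marked 25 of 42 genes (all genes: 57.4%) and the knockout list 26 (62.1%). Of these, 22 were marked in both (53.7% of all genes), Tap2, H2-Aa, H2-Oa and H2-M10.2 in the knockout alone (8.41%), and H2-Eb2, Ciita and H2-M10.4 in WT alone (3.75%). Tap2 had a WT peak just past 1 kb from its lower-coordinate end. The 3 WT-only peaks had −log10 q between 0.748 and 1.81. With a −log10 q of at least 5, WT marked 15 members (43.0% of all genes) and the knockout 21 (57.3%), 15 were marked at that value in both (42.7%) and 0 in WT alone (0.289%), and the 6 in the knockout alone (14.6%) were Tap2, H2-DMa, H2-DMb1, H2-DMb2, H2-Q10 and H2-T-ps.

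Peaks were broader in the knockout list. Within 2 kb of the gene ends, all 22 members marked in both lists had more bases under H3K4me3 peaks in the knockout, as did 96.8% of the 11685 genes marked in both, and the median difference was 735 bp for the members and 629 bp for all genes. Among the peptide-loading genes Tapbp went from 1685 to 4538 bp, Tap1 from 1970 to 4068 bp, B2m from 1443 to 2712 bp and Tap2 from 1073 to 2569 bp. H2-K1 went from 1548 to 2619 bp, H2-D1 from 1883 to 2274 bp, H2-T22 from 828 to 2845 bp and H2-M3 from 1457 to 1544 bp. In class II, H2-Ab1 went from 688 to 1575 bp and H2-DMb1 from 862 to 1436 bp, whereas H2-Aa went from 537 to 423 bp and H2-Eb2 from 244 to 0 bp. The direction at the marked members was thus that of nearly all genes.

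**Figure D4:**
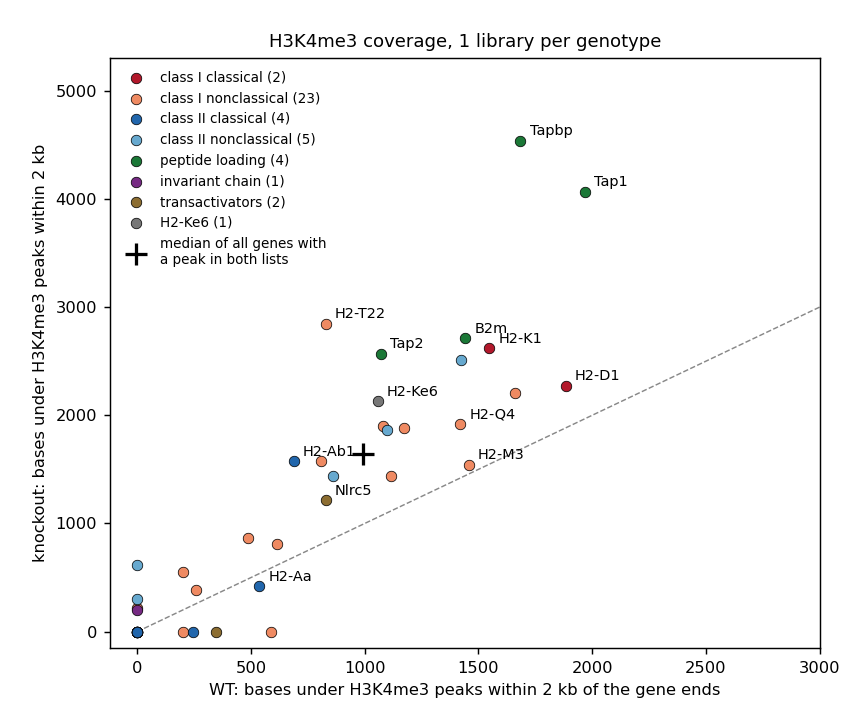
Bases under H3K4me3 peaks within 2 kb of the gene ends in WT (horizontal) and NPM1 knockout (vertical) cardiac macrophages after infarction, for the 42 genes by class; the dashed line marks equal coverage and the cross the median of all genes with a peak in both lists (994 and 1643 bp). Tapbp and Tap1 stand highest, at 4538 and 4068 bp in the knockout.

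Reads at the strongest summit, divided by each list's genome-wide background, rose from a median of 10.8 in WT to 70.9 in the knockout over the 22 members. The median ratio per gene was 5.63 for the members and 6.57 for all 11685 genes, whose middle range ran from 5.45 to 7.68. Nlrc5 had a ratio of 8.31, H2-T24 of 7.58 and Tap1 of 7.57, and these stood at percentiles 85.0, 73.1 and 72.9 of all genes. H2-K1, H2-D1 and B2m had ratios of 5.28, 5.14 and 5.98, within or just under the middle range of all genes. The lowest ratios were 1.17 at H2-Q2, 1.37 at H2-T3, 2.44 at H2-DMb2, 2.99 at H2-Q7 and 3.12 at H2-Q6. H2-Q6 and H2-Q7 had 25.3 and 28.8 in WT, the highest WT values of the family, and 79.1 and 85.9 in the knockout, where they did not stand out. The knockout list as a whole was more enriched, with 54.8% of its peaks at a −log10 q of at least 5 against 23.0% in WT, and this cannot be told apart from a change at single genes with 1 library per genotype. Macrophage, B cell, dendritic cell and fibroblast markers were marked more often in the knockout list than in WT, as were all genes (62.1% against 57.4%). The counts of T cell, endothelial and cardiomyocyte markers did not change, and neutrophil markers went from 3 to 2. The part of other cell types was not tested.

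Genes around the family were described through 7 lists of 45 genes. The infarct NPM1 list marked 37 of them (all genes: 50.8%) and the sham list 2 (10.9%), the IL-4 list 38 (51.5%) and the untreated list 5 (6.74%), and H3K4me3 marked 38 in WT (57.4%) and 40 in the knockout (62.1%). The immunoproteasome and proteasome activator list was marked in full, 6 of 6, in all 4 deeper lists. Within it Psmb8, an immunoproteasome subunit encoded between Tap1 and Tap2, had NPM1 in every list: fold 9.14 (−log10 q 28.9) in sham, 6.6 (52.1) in infarct, 6.6 (8.62) in untreated and 6.43 (54.7) in IL-4 macrophages. Its H3K4me3 folds were 4.12 (19.8) and 3.92 (89.6). The strongest Psmb8 peak lay at the upper-coordinate end of the gene in every list. Psmb8 was the only one of the 45 genes with a −log10 q of at least 5 in the sham or untreated list, where 0 of the 42 members reached that value. Psme2 had 6.05 (23.9) in the infarct list, 6.64 (32.5) in the IL-4 list and 6.39 (162) for knockout H3K4me3, and Psme1 had 9.43 (160) in the last.

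The list of class I trimming and loading, which also took in Sppl3, was marked in 5 of 6 genes by NPM1 after infarction and in 6 of 6 with IL-4. Calr, the chaperone calreticulin, had NPM1 folds of 7.47 (−log10 q 39.2) and 8.49 (53.4), Canx 6.96 (20.9) and 7.32 (26.8), and Pdia3 6.86 (19.2) and 9.22 (35.2) in the infarct and IL-4 lists. Pdia3 also had fold 5.19 (4.27) in the untreated list. Sppl3 had fold 3.31 (1.32) in the sham list, at its upper-coordinate end. In the knockout H3K4me3 list Erap1, which trims peptides, had fold 12.7 (203), Pdia3 9.72 (188) and Canx 7.76 (120). The endosomal processing list was marked by NPM1 in 7 of 7 genes in both deep NPM1 lists, led by the cathepsins Ctsb, at 5.63 (27.6) and 6.13 (39.0), Ctsl, at 6.69 (27.6) and 5.92 (20.8), and Ctsd, at 3.93 (18.2) and 4.38 (27.4). Ctsl had fold 3.89 (2.03) and Ifi30 fold 3.03 (0.85) in the untreated list, and Sppl2a, Ctsb and Ctsl led the knockout H3K4me3 list at 11.6 (155), 6.03 (147) and 5.92 (90.9).

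Of 7 factors that bind MHC promoters, 5 were marked in each of the 4 deeper lists. Rfxank had NPM1 folds of 8.61 (−log10 q 32.6) and 6.72 (23.1), Nfya 6.37 (26.0) and 7.82 (39.4), and Creb1 7.14 (20.5) and 8.02 (29.5) in the infarct and IL-4 lists, and Nfya had fold 3.89 (2.03) in the untreated list. For knockout H3K4me3, Rfxap had 9.30 (153), Creb1 7.36 (111) and Rfxank 8.87 (111). The strongest NPM1 peaks of Rfxank lay at its upper-coordinate end and its strongest knockout H3K4me3 peak at the lower. All 8 inducers of MHC genes were marked in the 4 deeper lists. Ifngr1, a chain of the interferon-gamma receptor, led them with NPM1 folds of 10 (44.4) and 11.1 (64.7) and a knockout H3K4me3 fold of 9.80 (170). Jak2 had 6.91 (18) and 6.05 (17.3) and Irf1 4.70 (15.4) and 5.49 (26.4) for NPM1, and Jak1 had 7.64 (92.6) for knockout H3K4me3. Among the promoter factors Rfx5 and Nfyc had no gene-end peak in any list.

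Of 6 MHC-like genes outside the complex, 4 were marked in each of the 4 deeper lists. Hfe, which regulates iron uptake, had NPM1 folds of 5.98 (−log10 q 19.2) and 4.47 (12.6), Fcgrt 6.23 (18.4) and 4.47 (9.34), and Mr1 4.26 (5.28) and 4.25 (6.25). For knockout H3K4me3, Procr had 8.20 (88.7), Hfe 9.94 (83.5) and Mr1 7.32 (35.8). The strongest NPM1 peaks of Hfe lay at its lower-coordinate end and its strongest H3K4me3 peaks at the upper. Of 5 genes of class II turnover and costimulation, 2 were marked in each deep NPM1 list, Marchf8 with 5.46 (8.46) and 5.02 (9.13) and Cd40 with 4.44 (7.89) and 5.06 (11.6), and 4 in the knockout H3K4me3 list, against 3 in WT. Marchf8 had the highest knockout fold there, 16.8 (206), followed by Cd86 at 11.5 (47.3) and Cd40 at 6.33 (36.3).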

How the data were processed

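NPM1 CUT&Tag gave 4 peak lists and H3K4me3 CUT&Tag 2, from 1 library each. The upstream tools (MACS2 2.2.7.1, Bowtie2, deepTools, bcl2fastq 2.17) and the build mm10 are as listed per the submitters' processing notes, which give no settings. The deposited narrowPeak lists give for each peak a score, a ratio (fold of the summit over local background) and −log10 p and −log10 q; the score was not used. The authors' values were taken as deposited. Reads at each summit and its background were solved from fold and −log10 p (tolerance 0.001), assuming a pseudocount of 1 and a Poisson tail; the background and summit-read values rest on this. Gene positions came from RefSeq (GRCm38.p6) without exons, so exon or intron is not given. A peak marks a gene within 1 kb of either end; the strongest by −log10 q is described; covered bases use 2 kb. Genes filed under a chromosome but placed on other scaffolds were left out, so 21774 remained.

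Members, gene lists and marker lists were chosen with earlier results of these data known. Classical class I, class II and partner genes were named with values in every list; nonclassical class I genes where a gene-end peak had −log10 q of at least 5, with H2-M10.2, H2-M10.6, H2-Q1, H2-Q2, H2-T3 and H2-M10.5 named besides after their values were seen; of each gene list, up to 3 genes with the highest −log10 q. No test was made, since each group is 1 library. The labels carry no replicate numbers. On simulated peaks planted at 400 gene ends, 400 were found, and of 200 planted away from ends 0; of 2000 simulated summits 1903 were solved, 97 gave no value and 0 a wrong one. The simulated summits had fewer than 200 reads and low backgrounds, so the higher summits and local backgrounds of the knockout list were not covered. Python 3.11.15, pandas 2.3.3, numpy 2.4.6 and scipy 1.17.1 were used. Alternatives were other q, fold, rank and window limits. One gene of the inducer list is not reported here by name.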

Additional observations from a re-analysis of the deposited data

How the results depend on the processing

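Of 212 values recomputed for 24 results, 154 stayed within 1.5 times the value reported and 58 did not. The values that changed direction were 0, but counts cannot do so, and only the median knockout gain could have. The alternatives were listed with earlier results of these data known. Requiring a −log10 q of at least 5 left 0 members marked in the sham list, 12 in the infarct list, 0 in the untreated list, 16 in the IL-4 list and 15 in the WT H3K4me3 list, with 1 of the 45 related genes in the sham and 1 in the untreated list. It left 12 members in the infarct list alone, 0 in the sham list alone and 0 in both, 16 in the IL-4 list alone and 0 in both, 0 in WT H3K4me3 alone, and 9 with NPM1 and H3K4me3, and the median knockout gain became 1137 bp.

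Requiring a fold of at least 4 left 1 member marked in the sham list, 10 in the infarct, 0 in the untreated, 12 in the IL-4, 10 in the WT and 17 in the knockout list, and 1 and 2 related genes in the sham and untreated lists. It left 10 members in the infarct list alone, 1 in the sham list alone and 0 in both, 12 in the IL-4 list alone and 0 in both, 8 in the knockout alone, 1 in WT alone and 9 in both genotypes, and 6 with NPM1 and H3K4me3. A window of 2.5 kb gave 12 members and 9 related genes in the sham list and 9 members in both heart NPM1 lists.

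Over RefSeq promoter windows 3 members were marked in the sham list, 16 in the infarct, 1 in the untreated, 16 in the WT and 17 in the knockout list, 0 and 3 related genes in the sham and untreated lists, 1 member in both heart NPM1 lists, 1 in both BMDM lists, 2 in the knockout alone, 1 in WT alone and 13 with NPM1 and H3K4me3. Counting the whole gene and 1 kb gave 15 members and 14 related genes in the sham list, 4 and 11 in the untreated list, 12 members in both heart NPM1 lists and 4 in both BMDM lists. A −log10 q of at least 1.3 left 1 member in the untreated list, 1 in both BMDM lists and 1 in WT H3K4me3 alone, and keeping the top 50000 peaks of each list left 1 in WT alone. Without the nonclassical class I genes 11 members had more covered bases in the knockout. These values follow from fewer peaks, other windows or fewer genes.

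No paired analysis was possible because the labels carry no replicate numbers and each group is 1 library. Leaving out a replicate was not possible for the same reason. The sham and untreated lists had the lowest backgrounds; the part of depth in their counts was not tested.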

Other observations

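The H2 pseudogenes, which fall outside the 42 genes, also carried peaks. Of 11 on assembled chromosomes, 1 was marked in the sham list (protein-coding genes: 10.9%), 6 in the infarct list (50.8%), 0 in the untreated list (6.74%), 7 in the IL-4 list (51.5%), 5 in the WT H3K4me3 list (57.4%) and 7 in the knockout list (62.1%). H2-K2 had NPM1 folds of 6.48 (−log10 q 54.0) in the infarct list and 6.89 (58.5) in the IL-4 list, and H3K4me3 folds of 6.42 (28.5) in WT and 6.38 (121) in the knockout. H2-Q5 had NPM1 folds of 2.58 (0.573) in the sham list, 6.14 (23.4) in the infarct list and 6.27 (32.2) in the IL-4 list, and H3K4me3 folds of 6.86 (30.3) and 8.49 (122). The peaks of both pseudogenes had values like those of H2-K1 and H2-Q7. How reads that fit several copies were handled is not stated. These genes were singled out after their values were seen.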
